A study of Mus musculus with 27 samples.

Results

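The 36 genes described here encode plasma proteins, enzymes and transport proteins that hepatocytes, the main cells of the liver, make in large amounts. They were measured in mouse osteosarcomas, malignant tumours of bone, and in the metastases of these tumours to lung and liver. Each gene was read through the platform annotation, with 1 probe per gene, the one with the highest mean over 27 arrays. All 36 had a named probe among the 19057 genes named on the array. The genes were chosen by their measured levels, which stood high in the liver metastases against the metastatic primary tumours. Of the 14 genes with the smallest p in that contrast, 11 are among the 36, and Colec11 and Slc38a3, at ranks 15 and 16, are not. Levels in the liver metastases are therefore a description, with no test.

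The tumours arose in mice that carried Col2.3-Cre, a transgene in which a rat collagen promoter drives Cre recombinase in the osteoblast lineage. These mice were crossed either to floxed p53 mice, in which Cre excises a wild-type p53 allele, or to mice with an LSL allele, in which Cre removes a stop cassette before a point-mutant p53. All lines were backcrossed to C57BL/6, and the labels do not say which cross, sex or age gave each tumour. There were 6 primaries that stayed localized, 12 that had spread (metastatic primaries below), 7 metastases from lung and 2 from liver, with 1 array each. Every lung metastasis shares its specimen identifier with 1 of the 12 metastatic primaries. The liver metastasis CR-147 shares its identifier with a primary and a lung metastasis, and the primary of the liver metastasis RF-342 was not analysed here. Nothing in the labels says whether specimens are separate animals, so p-values measure the spread between these specimens.

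Hepatocytes secrete most proteins of blood plasma: albumin, apolipoproteins that carry lipids, clotting factors, protease inhibitors and carriers of haem and hormones. They also hold the urea cycle, which turns ammonia into urea, the enzymes that break down amino acids, and the enzymes that store and release glucose. Liver-enriched transcription factors of the forkhead, HNF4A and C/EBP families are known to act together at the promoters of such genes. Most of these genes are not known as products of osteoblasts, although some, among them Hp, Arg1 and Ass1, are known to be made by other cell types too.

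Across the 27 arrays 42.6% to 47.5% of the probes were detected, meaning a detection p under 0.05. The median signal of undetected probes, a measure of array background, was 43.8 to 50.2 in the lung metastases and 53.9 to 76.8 in their 7 primaries, with no overlap. Bone and tumour identity was checked with 9 osteoblast and bone matrix markers, whose median level lay between 10.42 and 13.29 on 22 arrays. On the other 5 arrays, the primaries CR-65, RF-56, CR-45 and FC-28 and the lung metastasis FC-28, it lay between 4.6 and 5.63. Lung epithelium markers had a median of 10.2 to 13.18 in the lung metastases. They also stood at 7.77 in the liver metastasis CR-147, with 8 of 11 detected, against 4.84 in RF-342, with 4 of 11 detected. In bulk tissue, fewer cells of a type and less RNA per cell cannot be told apart.

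Promoter sequences from RefSeq (build GRCm38.p6) were at hand for 27 of the 36 genes, as 29 windows. The 150 bases before the transcription start are shown for 5 genes whose levels the results turn on or whose patterns differ: the carriers Alb, Apoa1 and Ahsg, the clotting gene Fga, and Iyd, which was detected in all lung metastases. Sequences run 5′ to 3′ on the gene's strand, which is the plus strand for all 5. Capitals mark matches, on either strand, to TGTTTAC or TGTTTGC (forkhead factors), CAAAGTC (HNF4A), TTGCNNAA (C/EBP) and TATAAA (the TATA box). The last letters of TGTTTGC are the first of TTGCNNAA, so a match to one can overlap the other.
Alb, chr5:90460720-90460869: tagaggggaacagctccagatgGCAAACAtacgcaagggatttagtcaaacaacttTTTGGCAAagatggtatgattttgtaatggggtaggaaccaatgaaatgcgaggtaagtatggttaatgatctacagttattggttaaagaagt
Apoa1, chr9:46228480-46228629: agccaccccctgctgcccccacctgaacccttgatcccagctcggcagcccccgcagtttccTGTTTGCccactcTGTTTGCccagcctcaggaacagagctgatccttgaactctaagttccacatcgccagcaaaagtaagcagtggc
Ahsg, chr16:22891865-22892014: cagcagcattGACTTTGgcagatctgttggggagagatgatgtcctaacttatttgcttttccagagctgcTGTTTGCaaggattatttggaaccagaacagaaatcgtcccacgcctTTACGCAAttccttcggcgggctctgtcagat
Fga, chr3:83026003-83026152: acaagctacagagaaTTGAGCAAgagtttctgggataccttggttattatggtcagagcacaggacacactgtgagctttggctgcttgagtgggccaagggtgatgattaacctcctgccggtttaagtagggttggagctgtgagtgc
Iyd, chr10:3540124-3540273: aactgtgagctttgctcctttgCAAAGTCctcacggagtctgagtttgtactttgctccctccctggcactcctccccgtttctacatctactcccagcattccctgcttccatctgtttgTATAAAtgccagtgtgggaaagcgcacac
Within 250 bases before the start, TGTTTGC stood in the promoters of 8 of the 27 genes (29.6%), against 4.93% of 27025 genes in the RefSeq table. TTGCNNAA stood in 11 (40.7%, against 10.84%), CAAAGTC in 5 (18.5%, against 4.33%), TATAAA in 6 (22.2%, against 14.33%) and TGTTTAC in 2 (7.4%, against 3.54%). Among the genes described below, Alb, Apoa1, Ahsg, Ambp, Apob, Dio1, Fabp1 and Tdo2 carry TGTTTGC. A match is a run of letters and not evidence of binding.

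In the liver metastases, 35 of the 36 genes were detected on both arrays. Levels are log2 normalized intensities, and since each probe has its own brightness, levels are compared between arrays and not between genes. The lowest level among all detected probes of an array, members or not, was 5.12 to 5.40, so values under about 5 are not well above background. Fabp1, a fatty acid binding protein of hepatocytes, was detected on no array, with a level of 4.46 and 4.41 in the liver metastases and 4.39 to 4.57 elsewhere. The median level of all 36 was 12.53 in CR-147 and 12.56 in RF-342.

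Of the 12 apolipoproteins and carriers, 11 were detected in both liver metastases. Alb, albumin, the main carrier protein of plasma, stood at 10.74 in CR-147 and 10.61 in RF-342, against 4.43 to 4.9 in the 12 metastatic primaries, none of which detected it. That is at least 44-fold higher, where the primaries are set at the lowest detected signal of each array. Apoa1, the main protein of high-density lipoprotein, stood at 15.37 and 15.46, and 3 of 12 metastatic primaries detected it, with a range of 4.44 to 8.35. Hpx, hemopexin, which binds free haem, stood at 15.73 and 15.69, and Apoa2, a second protein of high-density lipoprotein, at 15.56 on both. The 2 liver metastases were close to each other for these genes. Apob, the structural protein of low-density lipoprotein, stood at 12.69 and 12.87 and was at least 190-fold higher than in the metastatic primaries. Hp, haptoglobin, which binds free haemoglobin, stood at 15.18 and 15.32, but it was also detected in 12 of 12 metastatic primaries, at 8.56 to 12.89. Apoc3, Ttr, Ahsg, Ambp and Azgp1 stood between 14.09 and 15.43 in the liver metastases, and 3 or 4 of the 12 metastatic primaries detected each.

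All 8 coagulation and protease control genes were detected in both liver metastases. Serpinf2, the inhibitor of plasmin, stood at 13.61 and 13.34 and was at least 306-fold higher than in the metastatic primaries. Fga and Fgb encode chains of fibrinogen, the precursor of the clot. Fga stood at 14.8 and 15.42, and Fgb at 7.56 and 7.94, at least 5.8-fold higher. F2, prothrombin, stood at 12.36 and 12.25, and 6 of 12 metastatic primaries detected it, at levels up to 6.26. Klkb1, plasma prekallikrein, and Proz, protein Z, were detected in none of these primaries and were at least 29.8-fold and 32.6-fold higher. Fgg, the remaining fibrinogen chain, and Itih3 stood at 12.78 to 14.95, and 7 and 4 of the 12 metastatic primaries detected them.

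The 7 urea cycle and amino acid genes were detected in both as well. Cps1, which feeds ammonia into the urea cycle, stood at 13.28 and 13.59, at least 298-fold above the metastatic primaries. Tdo2, which opens the ring of tryptophan, stood at 8.49 and 7.79, at least 7.59-fold higher. Tat, tyrosine aminotransferase, stood at 6.28 and 7.18, at least 2.86-fold higher, and differed by 0.91 between the liver metastases. Ass1 and Arg1 are urea cycle enzymes, and both were also detected in 12 of 12 metastatic primaries. Ass1 stood at 13.18 and 13.27 in the liver metastases against 6.63 to 10.05, and Arg1 at 14.12 and 13.77 against 5.24 to 12.74, so neither overlapped these primaries. Mat1a stood at 14.55 and 15.02, and Cbs, which makes cystathionine from homocysteine, at 10.22 and 10.17, at least 31.6-fold higher.

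The remaining 9 genes, of glucose, glycogen, thyroid hormone and other functions, were detected in both liver metastases. Pck1, which commits carbon to glucose synthesis, stood at 9.38 in CR-147 and 7.92 in RF-342 and differed by 1.46 between them. Iyd, which recovers iodide from iodotyrosines, stood at 11.59 and 11.27, at least 74.4-fold higher than in the metastatic primaries. Ttc36, a tetratricopeptide repeat protein, stood at 11.19 on both, at least 62.8-fold higher. Gys2, liver glycogen synthase, Gckr, the regulator of glucokinase, Dio1, a deiodinase of thyroid hormone, Nlrp6, an innate immune sensor, Slc16a5, a monocarboxylate transporter, and Acnat2, an acyltransferase, were at least 10.9-fold to 31.3-fold higher. The heat map of all members shows these levels array by array.

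**Figure D1:**
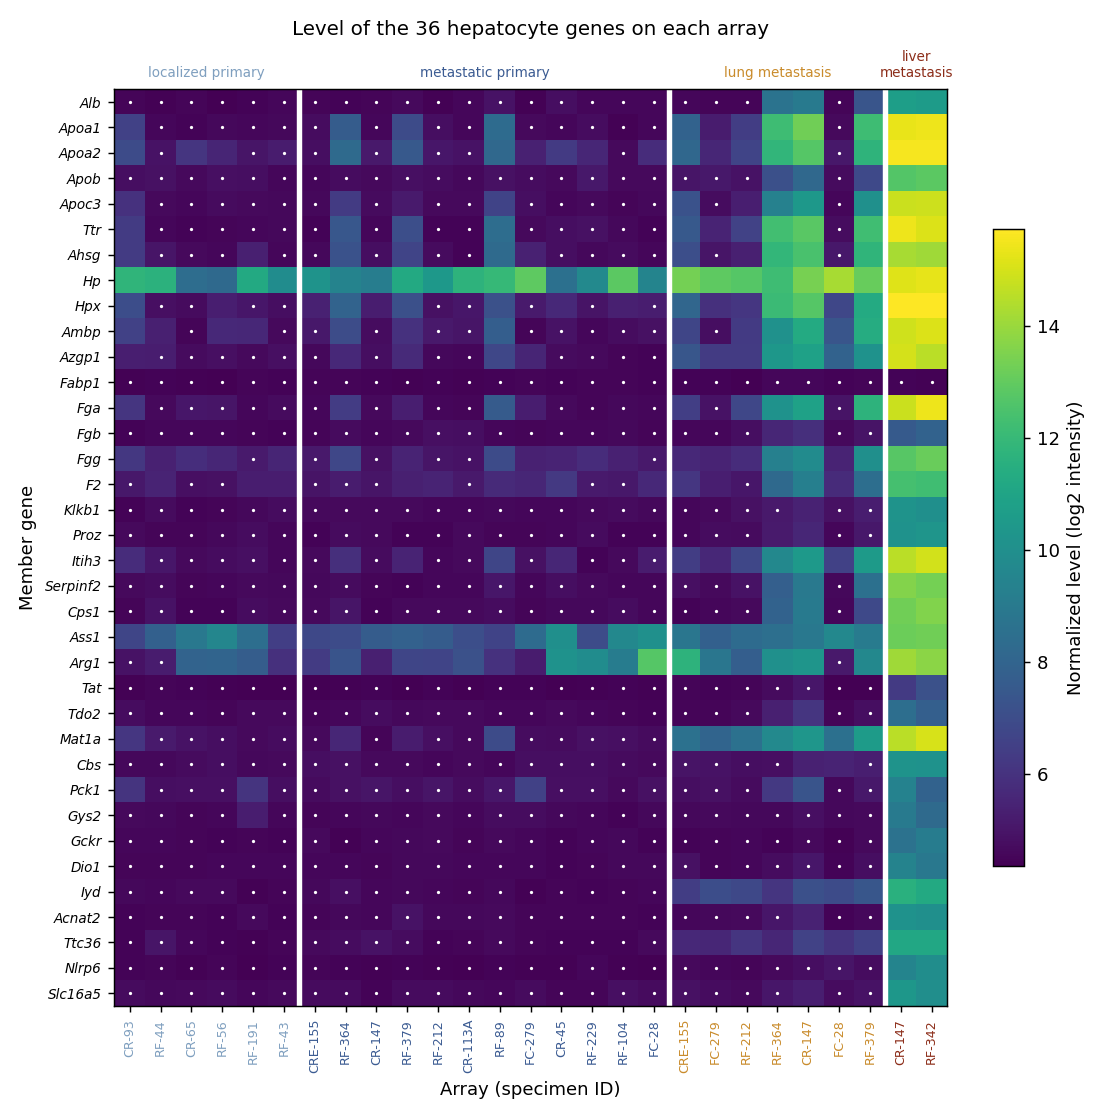
Normalized level (log2 intensity, colour) of the 36 genes (vertical axis) on each of the 27 arrays (horizontal axis, specimen identifiers, ordered by group). White dots mark values that were not detected; 35 genes are detected in both liver metastases, and Fabp1 on no array.

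Outside the liver metastases, the number of members detected differed widely between arrays. Among the lung metastases it was 30 in CR-147, 26 in RF-364, 22 in RF-379, 18 in CRE-155, 17 in RF-212, 14 in FC-279 and 12 in FC-28. Among the primaries it was 16 in RF-379 and RF-89, 15 in RF-364 and CR-93, 10 in FC-279, and 3 to 8 in the other 13. Of all probes, 43.3% to 46.9% were detected on the lung metastasis arrays and 42.6% to 47.5% on those of the primaries. The counts of members are read beside these shares. Members detected on no primary numbered 18, and 17 of these were detected in both liver metastases. Hp and Ass1 were the 2 members detected in all 18 primaries.

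**Figure D2:**
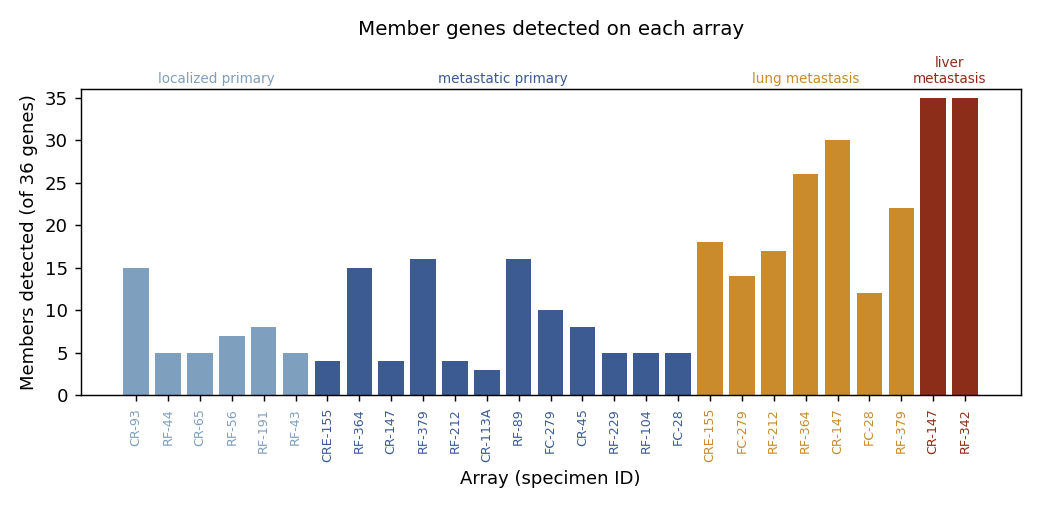
Number of the 36 members detected (vertical axis) on each array (horizontal axis, specimen identifiers), coloured by group. Both liver metastases detected 35, the lung metastases 12 to 30 and the primaries 3 to 16. Of all probes, 42.6% to 47.5% were detected on each array.

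In the lung metastases Alb was found in CR-147 (8.99), RF-364 (8.71) and RF-379 (7.36), and stood at 4.50 to 4.57 in the other 4. Apoa1 stood at 13.25 in CR-147, 12.22 in RF-364 and 12.20 in RF-379. In the other 4 it stood at 7.95 in CRE-155, 6.42 in RF-212, 5.24 in FC-279 and 4.67 in FC-28, where it was not detected. Every lung metastasis thus lay below both liver metastases for Alb and Apoa1. Cps1 stood at 7.93 in RF-364, 9.03 in CR-147 and 6.85 in RF-379, and at 4.49 to 4.67 in the others, which did not detect it. Fgb was detected in RF-364 (5.56) and CR-147 (5.90) and stood at 4.55 to 4.97 in the other 5. Tdo2 was detected in the same 2 lung metastases, at 5.38 and 6.13, and stood at 4.50 to 4.79 elsewhere. Apart from Apoa1, detected in 6 of the 7 lung metastases, these genes were found in 2 or 3 of them. RF-364, CR-147 and RF-379, in that order, also held Apob, at 7.12, 8.19 and 6.86, and Serpinf2, at 7.82, 8.94 and 8.54.

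The levels of the members in each lung metastasis were set against the mean of the 2 liver metastases, over the members detected on both sides. The median difference on the log2 scale was -4.06 in CR-147 (30 members), -4.23 in RF-364 (26) and -4.07 in RF-379 (22). It was -6.39 in FC-28 (12 members), -7.23 in FC-279 (14), -7.34 in CRE-155 (18) and -8.32 in RF-212 (17). In CR-147 the single differences ran from -4.89 to -1.33, in RF-364 from -5.66 to -1.96, and in RF-379 from -6.58 to -2.17. In the other 4 they spread further, from -10.17 at the lowest to -1 at the highest. Across the 36 genes, levels correlated with those of the liver metastases at Pearson's r of 0.90 in CR-147, 0.89 in RF-364 and 0.91 in RF-379, and at 0.43 to 0.68 in the other 4. Over the members detected on both sides, r was 0.90 in CR-147, 0.87 in RF-364 and 0.86 in RF-379. In the other 4 it was 0.13 to 0.49. The correlations describe genes and not replicates, and they include the brightness of each probe, which all arrays share.

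**Figure D3:**
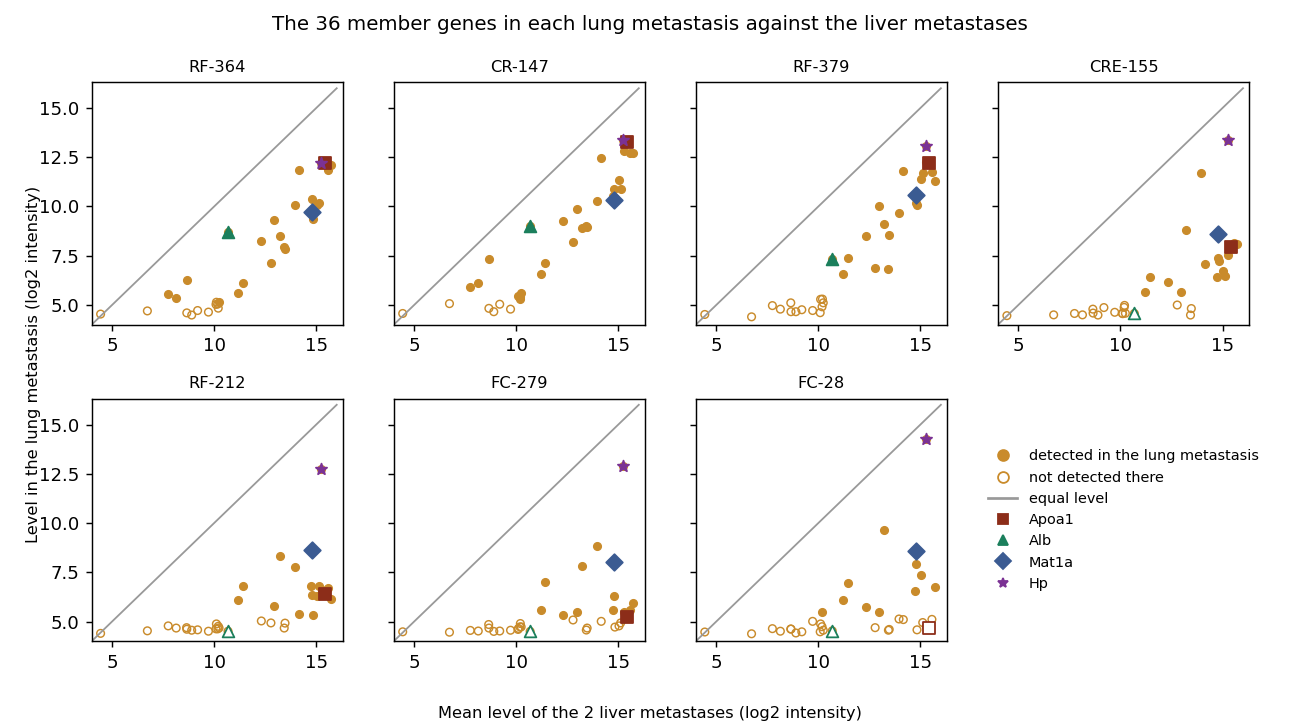
Level of each of the 36 members in 1 lung metastasis (vertical axis, log2 intensity) against the mean level of the 2 liver metastases (horizontal axis, log2 intensity), with a panel per lung metastasis. Filled symbols were detected in that lung metastasis, the grey line marks equal levels, and symbols single out Apoa1, Alb, Mat1a and Hp; in CR-147, RF-364 and RF-379 most detected members run below the line, with median differences of -4.23 to -4.06, while in the other 4 Hp is the detected member nearest to the line.

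Over the group of 7 lung metastases, the mean difference from the liver metastases was furthest from 0 for Apoc3, an inhibitor of lipoprotein lipase (-7.44), Cps1 (-7.42) and Serpinf2 (-7.14). Apoc3 was detected in 5 and Cps1 and Serpinf2 in 3 of the 7, so these means hold values at background, and their size depends on how bright the probe is in the liver metastases. It was nearest to 0 for Fabp1 (0.05), which was detected on neither side, for Hp (-2.12) and for Tat (-2.15), which no lung metastasis detected. Hp stood at 12.19 to 14.25 in the lung metastases, with a median of 13.08. It was highest in FC-28, which had the fewest members detected. The members that no lung metastasis detected were Fabp1, Tat, Gys2, Gckr, Dio1 and Nlrp6, and of these all but Fabp1 were detected in both liver metastases.

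A further set of members was detected in all 7 lung metastases, also where Alb was not. These 9 were Hp, Hpx, Azgp1, Fgg, Itih3, Ass1, Mat1a, Iyd and Ttc36. Mat1a, the methionine adenosyltransferase of adult liver, stood at 10.59 in RF-379, 10.32 in CR-147, 9.73 in RF-364, 8.61 in RF-212, 8.59 in CRE-155, 8.56 in FC-28 and 8.01 in FC-279. Iyd lay between 6.11 in RF-364 and 7.40 in RF-379, with a median of 6.94. Ttc36 lay between 5.57 in FC-279 and 6.59 in CR-147, with a median of 6.07. For Iyd the specimen with the second highest number of detected members, RF-364, was thus the lowest of the 7. RF-379 (7.40) and CR-147 (7.13), which also had many members detected, were the highest. In FC-28, Azgp1, a lipid-binding glycoprotein of plasma, stood at 7.94 and Ambp, the precursor of an alpha-1 microglobulin, at 7.37, while Apoa1 (4.67) and Ttr (4.74) were not detected there.

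Each lung metastasis was compared with its own primary to ask which genes differ between a metastasis and the tumour it came from. Of the 36 members, 18 were detected on at least 7 of the 14 arrays and were tested, 9 were higher in the lung metastases and 0 were lower by limma at an adjusted p under 0.05. Among all 11214 genes tested, 5.7% were higher and 2.59% lower. The 18 passed a filter that a gene high in lung metastases alone can pass, so they do not stand for all 36. The median log2 fold change of the 18 was 2.89, and that of all genes tested was -0.06. This comparison shares 7 primaries with the contrast that chose the members, and the 7 lung metastases were in the fit of that contrast too. The values below are therefore read beside the shares of all genes and not as independent of the choice.

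Of the 9, Mat1a, Iyd and Ttc36 had the smallest p, and all were detected in every lung metastasis. Mat1a stood at 4.50 to 5.59 in the 7 primaries and 8.01 to 10.59 in the lung metastases, which did not overlap. Its means were 4.89 ± 0.38 and 9.20 ± 1.00 (SD, n = 7), so that the difference was 4.31 on the log2 scale (SE 0.3, limma adjusted p = 3.73e-05). Iyd was detected in 0 of 7 primaries (4.43 to 4.83) and 7 of 7 lung metastases (6.11 to 7.40), again with no overlap. It was at least 3.08-fold higher. Ttc36 was detected in 0 of 7 primaries (4.45 to 4.91) and 7 of 7 lung metastases (5.57 to 6.59) and was at least 1.75-fold higher. Both genes passed the detection filter through the lung metastases alone, so their calls in the filtered fit are not read as support. In the fit of all 19057 genes with no detection filter, their limma adjusted p was 0.001 for Iyd and 0.00275 for Ttc36. The primaries lay below detection for both genes, so their spread there is that of background. These p are not read as support either.

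The other 6 called members were plasma proteins. Azgp1 rose from 5.06 ± 0.56 to 8.48 ± 1.95 (SD, n = 7), or by 3.43 on the log2 scale (SE 0.57, limma adjusted p = 0.00729), with no overlap of the groups. Hp rose from 10.41 ± 1.31 to 13.13 ± 0.64 (SD, n = 7), by 2.72 on the log2 scale (SE 0.49, limma adjusted p = 0.011). Its groups overlapped through the FC-279 primary at 12.89. Itih3, a heavy chain of the inter-alpha-trypsin inhibitors, rose by 2.96 (adjusted p = 0.0199), and Hpx by 3.14 (adjusted p = 0.0319). Ambp rose by 2.95 (adjusted p = 0.0375) and Ttr, transthyretin, a carrier of thyroid hormone and retinol, by 3.51 (adjusted p = 0.0407), with 6 of 7 lung metastases and 2 of 7 primaries detecting each. All 9 called members were higher in 7 of 7 pairs, although the steps differed in size. Ttr went from 4.56 to 12.82 in the CR-147 pair and from 4.49 to 4.74, below detection on both arrays, in FC-28.

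**Figure D4:**
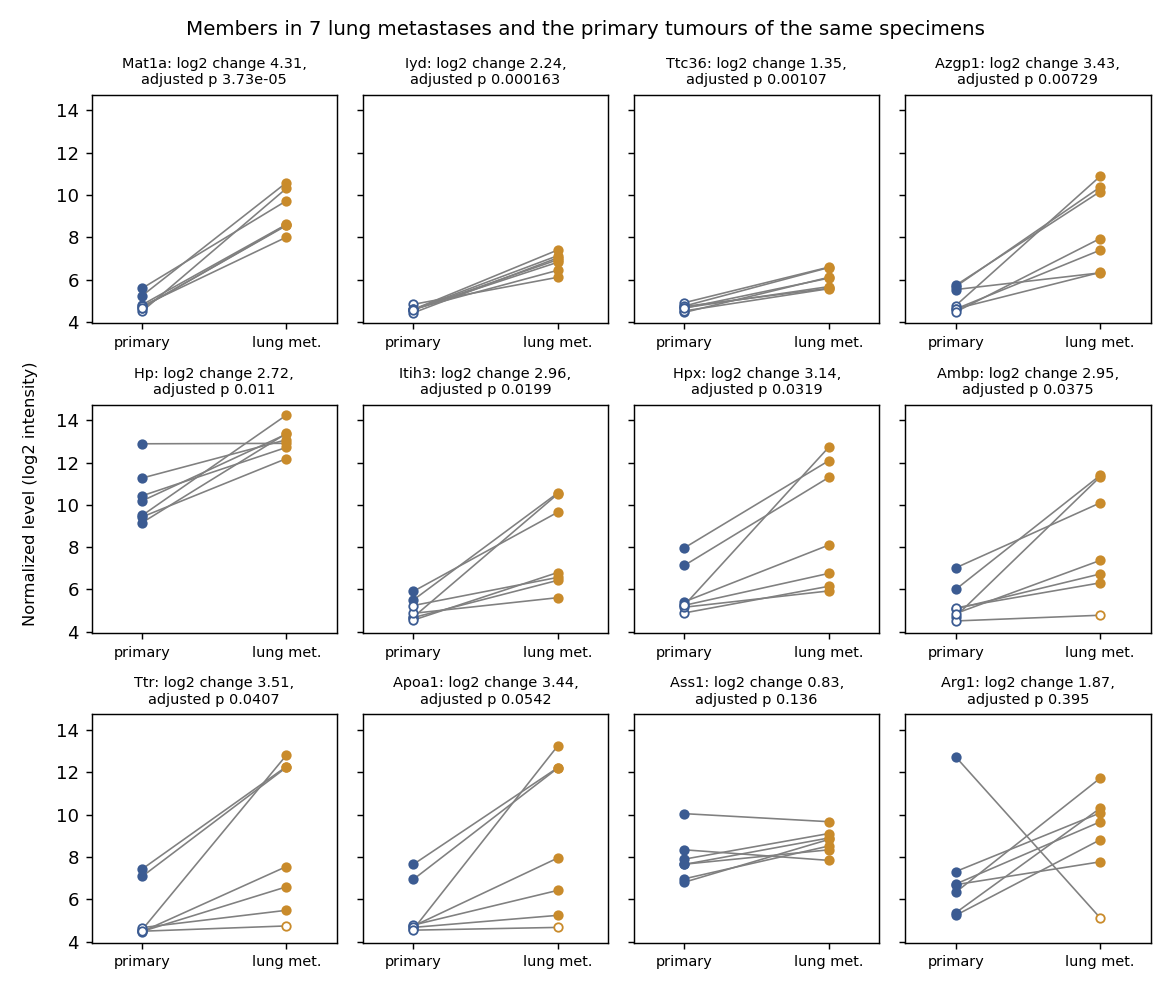
Level (vertical axis, log2 intensity) in the primary and the lung metastasis of each of 7 specimens, joined by a line, for the 9 called members and for Apoa1, Ass1 and Arg1, which did not pass. Open circles were not detected. Mat1a, Iyd, Ttc36 and Azgp1 separate the groups fully, and the share of all genes that do so is not given here. Arg1 falls in 1 pair, FC-28, and is higher in the other 6.

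The other 9 tested members did not pass. Apoa1 had a log2 fold change of 3.44 (SE 0.93, limma adjusted p = 0.0542) and was higher in 7 of 7 pairs, and its SD of 3.63 over the lung metastases was the widest of the 18. Fga, Apoc3, Apoa2, Ahsg (fetuin-A, a carrier that holds calcium phosphate in solution), Fgg and F2 had log2 fold changes of 1.57 to 2.96 and adjusted p of 0.0614 to 0.136. Ass1 stood at 7.91 ± 1.08 in the primaries and 8.74 ± 0.58 in the lung metastases (SD, n = 7; log2 fold change 0.83, limma adjusted p = 0.136). Arg1 differed by 1.87 on the log2 scale (SE 1.36, adjusted p = 0.395), was higher in 6 of 7 pairs, and went from 12.74 in the FC-28 primary to 5.13, not detected, in its lung metastasis. The 18 members not tested included Alb, Cps1, Apob, Serpinf2, Fgb and Tdo2, which 2 or 3 of the 7 lung metastases detected.

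Some calls were lost when a pair was left out, at adjusted p between 0.0505 and 0.0974. With each pair left out in turn and genes kept where at least 6 of the 12 arrays left detected them, a filter chosen after the data were seen, Mat1a, Iyd, Ttc36, Azgp1 and Hp were called in all 7 fits. Iyd and Ttc36 passed that filter through the lung metastases alone, so their calls in these fits are not read as support. Hpx was not called without RF-379 (limma adjusted p = 0.0747), RF-364 (0.0794), RF-212 (0.0522) or CRE-155 (0.0639), with log2 differences of 2.97 to 3.45 in these fits against 3.14 over all pairs. Itih3 was not called without RF-212 (adjusted p = 0.0505, log2 difference 3.08) or RF-364 (0.0565, 2.83), against 2.96 over all pairs. Ttr was not called without RF-379 (0.0901), RF-364 (0.0974), RF-212 (0.0816) or CRE-155 (0.0766), with log2 differences of 3.23 to 3.74 against 3.51. Ambp was called in 1 of the 7 fits, the one without FC-279 (0.0318), with log2 differences of 2.34 to 3.25 in the other 6 against 2.95. In the fit without FC-28, 4 further members were called, at log2 differences of 3.45 for Arg1 (adjusted p = 0.00505), 3.99 for Apoa1 (0.0371), 3.43 for Apoa2 (0.0393) and 3.37 for Fga (0.049). Fga was also called without FC-279 (0.0466). Between 5 and 12 members were called in these fits. With 7 of 12 arrays required, as over the full set, Iyd and Ttc36 could not be tested, because the 6 lung metastases left are the only arrays that detect them, and 3 to 9 members were called. Without the pairs RF-364, CR-147 and RF-379 together, 3 of 12 tested members were called, namely Mat1a, Iyd and Ttc36. In that fit all 3 passed the filter through the lung metastases alone, so these calls are not read as support. There the log2 difference was 2.56 for Hp (adjusted p = 0.11), 2.19 for Azgp1 (0.0595), 1.56 for Hpx (0.0708) and 1.52 for Itih3 (0.0514). Those pairs were picked after the data were seen because member levels are high there, so lower values without them follow in part from the choice, and 4 pairs are left.

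Array background moved with the groups in this comparison, as given above, with no overlap. With it as a covariate 0 members were called, and 17 genes of all tested were higher and 9 lower in place of 639 and 291. In that fit the log2 fold changes were 4.08 for Mat1a (adjusted p = 0.159), 2.84 for Iyd (0.135) and 4.14 for Hp (0.305), and Ttr was at -0.27 (0.974). Background and group cannot be told apart here. When arrays were scaled to a common median and not quantile normalized, 643 genes were higher and 2022 lower, the median of all genes moved to -0.32, and 14 members were higher and 0 lower.

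Lung epithelium markers rose in the same pairs, with 10 of 10 tested markers higher and 11 on the array. Of these, Sftpb, Sftpa1, Lamp3 and Foxj1 were detected in 0 of 7 primaries and passed the filter through the lung metastases alone. Their median level was 10.2 to 13.18 in the lung metastases and 4.62 to 5.3 in the 7 primaries. Scgb1a1, the secretoglobin of airway club cells, stood at 15.11 to 15.73 in all 7 lung metastases, and Sftpc, a surfactant protein of alveolar cells, at 12.97 to 14.66. Of 8 Kupffer cell markers, genes of the resident macrophages of liver, 6 were tested and 1, Marco, was higher. The median log2 fold change of the 6 was -0.57. Cd163, Folr2, Vsig4, Timd4 and C1qa lay between -1.07 and -0.27 and did not pass. Clec4f, the defining lectin receptor of Kupffer cells, was not tested in this comparison. It was detected at 5.63 in CR-147 and 5.64 in RF-379, against 10.32 and 10.14 in the liver metastases. The other 5 lung metastases did not detect it (4.61 to 4.70). The part of either tissue in the member levels was not tested.

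Genes of the same class that are not members were examined as lists. In the lung metastases, 7 of 23 tested plasma protein genes were higher (48 on the array, median log2 fold change 0.84), as were 3 of 14 enzyme and transporter genes (33 on the array, 0.70) and 2 of 7 transcription factor genes (14 on the array, 0.53), with 0 lower. Led by the smallest p, the plasma protein genes were C6 (log2 fold change 4.13, adjusted p = 3.21e-06), Hc, complement C5 (at least 18.1-fold), F10, a clotting factor (2.19, 0.000331), and Apoc1, an apolipoprotein (3.60, 0.00867). Hc was detected in 0 of 7 primaries and passed the filter through the lung metastases alone, so its call is not read as support. Among the enzymes, Gnmt, a glycine methyltransferase that uses the product of Mat1a, rose by 2.45 (adjusted p = 0.000247), Kynu, of tryptophan breakdown, by 1.87 (0.00167) and Adh1, an alcohol dehydrogenase, by 2.21 (0.0381). C6 lay between 7.69 and 9.79 in the 7 lung metastases and was lowest in CR-147, where Alb was highest. Plg, plasminogen, was detected in CR-147 (8.70), RF-379 (8.51) and RF-364 (7.36) and stood at 4.46 to 4.77 in the other 4.

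The transcription factors that rose were Foxa1 (log2 fold change 3.45, adjusted p = 0.000251) and Foxa2 (1.55, 0.00471), forkhead factors of liver and lung epithelium. Foxa1 was detected in 7 of 7 lung metastases at 7.54 to 9.88 and was lowest in CR-147. Hnf4a, a factor of hepatocytes and gut, stood at 7.42, 7.16 and 7.28 in CR-147, RF-364 and RF-379 and at 5.24 to 5.79 in the other 4, against 11.96 and 11.20 in the liver metastases. Of 10 acute phase genes tested, 4 were higher: Lcn2, lipocalin-2 (log2 fold change 2.93, adjusted p = 0.00194), Lrg1 (2.01, 0.00333), Saa3 (2.24, 0.0131) and Lbp (1.72, 0.0282). Of the bile duct list, which holds keratins and mucins shared with lung epithelium, 4 of 5 tested were higher, led by Muc1 (log2 fold change 5.6, adjusted p = 3.79e-07) and Krt19 (3.78, 2e-06).

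The list medians were also compared array by array. In 3 specimens, CR-147, RF-364 and RF-379, the 48 other plasma protein genes had medians of 7.73, 7.06 and 7.42 with 45, 46 and 45 detected, and in the other 4 lung metastases medians of 4.93 to 5.45 with 17 to 24 detected. The 33 other enzyme and transporter genes had medians of 6.75, 6.1 and 6.7 with 30, 24 and 27 detected, against 4.72 to 5.1 and 11 to 13. The 36 members had medians of 8.92, 7.88 and 7.38, against 4.81 to 5.33. The same 3 specimens were thus the highest of the 7 for the members and for both lists, and the plot of list medians shows all lists by array.

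**Figure D5:**
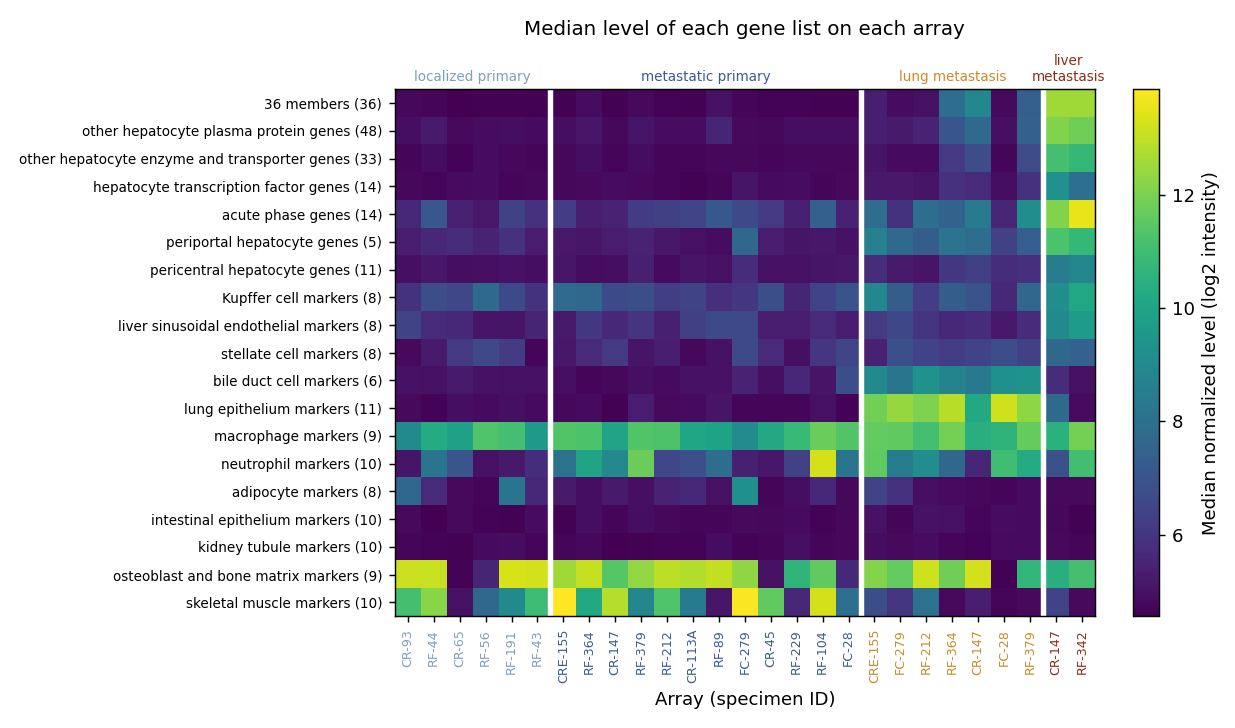
Median normalized level (log2 intensity, colour) of the 36 members and of 18 gene lists (vertical axis, with the number of genes on the array in parentheses) on each of the 27 arrays (horizontal axis, specimen identifiers, ordered by group). The members and the other plasma protein and enzyme lists are high in both liver metastases and intermediate in 3 lung metastases (CR-147, RF-364, RF-379). The 5 periportal genes are at 6.35 to 8.63 in the 7 lung metastases, with CRE-155 the highest of these. They are at 7.66 in the FC-279 primary and at 10.76 to 11.24 in the liver metastases. Lung epithelium markers are at 10.2 to 13.18 in all 7 lung metastases and at 7.77 in the liver metastasis CR-147.

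For genes outside the members, the liver metastases could be tested against the metastatic primaries, where 7.09% of 13517 genes were higher by limma. Of 47 other plasma protein genes tested 45 were higher, of 32 other enzymes and transporters 32, and of 13 transcription factors 12, with 0 lower in each. The smallest p among plasma protein genes belonged to Mbl1, a mannose-binding lectin (at least 44.9-fold, adjusted p = 2.38e-14), and Serpina7, the thyroxine-binding globulin (at least 26.3-fold, 2.79e-13). Among the enzymes it belonged to Agxt, a peroxisomal aminotransferase (at least 36.3-fold, 8.67e-14), and Gnmt (log2 fold change 8.41, 1.3e-13). Agt and Apoc2 (adjusted p = 0.0577 and 0.075) and the receptor gene Nr1i3 (0.446) did not pass. These lists were chosen as hepatocyte genes and share the arrays that chose the members, so they are no independent evidence of direction. A gene detected in the 2 liver metastases alone can pass the filter of this fit. Where a gene is given as at least so many fold higher, here or below, its p is not read as support. Without the liver metastasis CR-147, 502 genes were higher in place of 958.

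Genes of the 2 ends of the liver lobule were both present. Of 5 periportal genes tested 3 were higher: Uroc1 (log2 fold change 6.53, adjusted p = 3.62e-09), Cyp2f2 (6.07, 6e-06) and Hal (3.31, 0.000974). Cyp2f2 is also a gene of airway club cells. Of 10 pericentral genes tested 5 were higher, led by Cyp1a2 (at least 45.4-fold, adjusted p = 1.33e-12) and Gulo (at least 107-fold, 7.46e-11). Glul, glutamine synthetase, did not pass (adjusted p = 0.194). The 2 liver metastases differed for some genes: Cyp2c29 stood at 4.96, not detected, in CR-147 and 8.83 in RF-342, and the acute phase genes Saa1 and Saa2 at 6.32 and 5.91 in CR-147 against 10.59 and 9.95 in RF-342.

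Some markers of other liver cells were also higher in the liver metastases. Of the Kupffer cell markers 5 of 7 tested were higher, led by Clec4f (at least 32.4-fold, adjusted p = 4.88e-14). Of 8 sinusoidal endothelial markers 5 were higher, led by Clec4g (at least 87.4-fold, 1.45e-09), and of 8 stellate cell markers 4, led by Colec11 (at least 22.2-fold, 1.93e-14). Among these lists, C1qa (-0.19), Bmp2 (-0.34), Hhip (-0.44) and Des (-2.76) had log2 fold changes under 0 and did not pass. Of 14 acute phase genes 11 were higher, led by Saa4 (at least 76.1-fold, 1.99e-12) and Crp (log2 fold change 8.21, 9.21e-08). Of 5 bile duct markers tested 0 were called by limma, with 1 at an unadjusted p under 0.05. Of 11 lung epithelium markers 5 were higher, and each of these 5 stood higher in CR-147 than in RF-342. Scgb1a1 stood at 12.98 against 4.90, Sftpc at 10.75 against 4.84, Sftpb at 7.77 against 4.72 and Sftpa1 at 7.61 against 4.50, with RF-342 below detection, and Sftpd at 10.42 against 7.30, detected in both.

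Members were also found in some primary tumours. Apoa1 was detected in RF-89 (8.35), RF-364 (7.65), RF-379 (6.94) and CR-93 (6.54), and stood at 4.44 to 4.78 in the other 14. Ttr, at 8.44, 7.43, 7.08 and 6.32, and Hpx, at 7.19, 7.97, 7.14 and 7.04, were highest in the same 4 primaries, of which RF-89, RF-364 and RF-379 gave metastases and CR-93 was localized. Alb and Cps1 were detected in none of the 18. For RF-364 and RF-379 the lung metastasis of the same specimen held the transcripts at higher levels, with Apoa1 at 12.22 and 12.20. The primary CR-147 did not detect Apoa1 (4.58), although the lung and liver metastases of that specimen stood at 13.25 and 15.37. RF-89 and CR-93 have no metastasis among the arrays used here. Lung epithelium markers were detected at 6 of 11 in RF-379 and 5 of 11 in RF-89, against 2 to 4 of 11 in the other 16 primaries.

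The widest ranges over the 18 primaries were those of Arg1 (7.83), Hp (4.65) and Ttr (3.97). Arg1 ran from 4.91 to 8.01 in the localized primaries, with a median of 6.82, and from 5.24 to 12.74 in the metastatic ones, with a median of 6.96. It was highest in FC-28, followed by CR-45 (10.15), RF-229 (9.90) and RF-104 (9.12). Arg1 is known to be made by activated macrophages too. The median of 9 macrophage markers in these 4 was 11.35, 10.17, 10.82 and 11.74, and it ran from 8.98 to 11.74 over all primaries, with RF-104 the highest. FC-28 also lay above the localized primaries (8.98 to 11.3), while CR-45 and RF-229 lay within them. The part of macrophages in the Arg1 level was not tested. Hp ran from 8.24 to 11.79 in localized and from 8.56 to 12.89 in metastatic primaries, and the groups overlapped. Pck1 was detected in 3 primaries, CR-93 (6.08), RF-191 (6.08) and FC-279 (6.55), and these had the highest medians of 8 adipocyte markers, 7.67, 8.18 and 9.22, against 4.7 to 5.68 in the other 15. Pck1 is known to act in fat cells too, and the part of fat tissue in its level was not tested.

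Metastatic and localized primaries were compared to ask which genes differ between primaries that gave metastases and primaries that did not. Of 11684 genes tested 1 passed by limma (0.00856%). Of the 36 members 9 were detected on at least 6 of the 18 arrays and were tested, and 0 passed, with 0 at an unadjusted p under 0.05. Hp averaged 10.22 in the 6 localized tumours, with an SD of 1.6, and 10.64 in the 12 metastatic ones, with an SD of 1.47 (log2 fold change 0.42, SE 0.70, limma adjusted p = 0.935). The log2 difference was 1.11 for Arg1 (SE 0.95, adjusted p = 0.871), and for Hpx it was 0.49 (SE 0.47, adjusted p = 0.887). Ass1 averaged 7.99 (SD 1.23) and 7.98 (SD 1.26), and its difference was -0.01 (SE 0.58). The other 5, F2, Apoa2, Ahsg, Fgg and Ambp, had log2 fold changes of -0.1 to 0.35. With such standard errors these data do not bound the difference closely.

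The other lists gave 0 calls by limma in this comparison. Of 22 plasma protein genes tested, 0 had an unadjusted p under 0.05, and F10 (1.00, adjusted p = 0.762) and Kng2, a kininogen (-1.04, adjusted p = 0.798), had the log2 fold changes furthest from 0. Of 12 enzyme and transporter genes tested, 2 had an unadjusted p under 0.05, and Khk, ketohexokinase, was at 0.78 (adjusted p = 0.753). Of 10 acute phase genes 0 had an unadjusted p under 0.05, with Lcn2 at 1.32 (adjusted p = 0.827) and Lbp at -0.39 (adjusted p = 0.925). Of the 5 transcription factors tested 0 had an unadjusted p under 0.05, with Creb3l3, a factor of lipid metabolism, at -0.36 (adjusted p = 0.955).

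Where a member had other probes, these were detected in both liver metastases for each of the 19 genes concerned. Some of them were dimmer there, for example that of Slc16a5, at 5.93 in CR-147 and 5.23 in RF-342, near the limit of detection. Its probe used here stood at 10.38 and 9.99. Those of Acnat2 (7.62 and 7.85, against 10.14 and 10.04) and Dio1 (7.76 and 6.91, against 9.46 and 8.92) were dimmer too. Others were not, such as that of Cbs (10.33 and 10.24, against 10.22 and 10.17). The lower bounds above are those of the probe used. Of the 9 members called in the lung comparison, 5 had other probes, and each of these gave a smaller difference of the same sign. The other probe of Azgp1 differed by 1.36 between lung metastases and their primaries in place of 3.43, that of Itih3 by 1.87 in place of 2.96, that of Hpx by 2.24 in place of 3.14, that of Iyd by 1.03 in place of 2.24, and those of Hp by 2.2 and 2.42 in place of 2.72. Mat1a, Ttc36, Ambp and Ttr were each read by 1 probe.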

How the data were processed

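Total RNA of 27 mouse tumour specimens was measured on Illumina bead arrays, with no replicate arrays of a specimen stated. The deposited array files hold, per the file headers, the average bead signal of each probe (an intensity on a linear scale, not normalized), a detection score from 0 to 1, and the number of beads, with array medians of 41 to 44. BeadStudio is named in the submitters' processing notes, with its version not given in the sources used here. The authors also deposited a table of normalized log2 values, which served as an alternative; how it was normalized is not given in the sources used here. The number of arrays limits the precision.

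From the intensities, the normexp correction of limma 3.58.1 (R 4.3.3, statmod 1.5.0) estimated background from the detection p, taken as 1 minus the detection score, with an offset of 16, followed by log2 and quantile normalization. Of 45281 probes, 34885 carried 1 gene symbol in the platform annotation, 18 several and 10378 none; 34807 named probes matched RefSeq by Entrez ID. Each gene was read by its probe with the highest mean over the arrays.

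The comparisons were fitted with lmFit and eBayes over all genes detected (detection p under 0.05) on enough arrays, two-sided, with Benjamini-Hochberg adjustment and a threshold of 0.05. The comparisons were each lung metastasis against its primary (7 of 14 arrays, specimen as a block), metastatic against localized primaries (6 of 18 arrays), and liver metastases against metastatic primaries (2 of 21 arrays, lung metastases in the fit, specimen as a random block by duplicateCorrelation with a correlation of 0.355). The pairing comes from the specimen identifiers in the labels, and deviations from the group means correlated at 0.31 to 0.52 within the 7 pairs. Where no array of 1 group detected a gene, its difference is given as a lower bound against the lowest signal among detected probes of each array. The steps were tested on simulated data.

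The 36 genes, the other lists and the tests were chosen with earlier results of these data known. Named were a fixed set of members (Alb, Apoa1, Fgb, Cps1, Tdo2), the extremes in liver metastases, primaries and lung metastases, called members, and from the hepatocyte lists the called genes with the smallest p, at most 4, or else the largest changes. Genes outside this rule (among them Plg, Hnf4a, Clec4f in lung, Saa1, Saa2, Cyp2c29 and Glul) were picked after their values were seen, and lists of other cell types are given mostly as counts. Other backgrounds, normalizations, filters, probe choices, weights, covariates and left-out specimens were tried as alternatives. Some genes of the lists were not analysed here. Promoters, chromosome 18 left out, were read from the RefSeq table with Python 3.11.15 and pandas 2.3.3.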

Additional observations from a re-analysis of the deposited data

Results flagged for a closer look

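In 48 sets of member levels, each over the 6 localized primaries or the 7 lung metastases, 7 held a single specimen far from the others by Dixon's test, which at its 95% level flags a small share of sets by chance. All 7 lay among the localized primaries, and 6 of them in CR-93. In that tumour Apoa1 stood at 6.54 (next highest 4.62), Apoc3 at 6 (4.68), Ttr at 6.32 (4.59), Hpx at 7.04 (5.31), Fga at 6.1 (5.03) and Mat1a at 6.14 (5.2). These genes were measured on 1 array, so the 6 values are not independent of each other. The remaining one was Gys2 in RF-191, at 5.27 against 4.66 for the next highest.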

How the results depend on the processing

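The count of members higher in lung metastases than in their primaries, 9 in the reported fit, was 14 with median scaling, 16 with array weights, 5 without a detection filter, 0 with array background as a covariate and 3 without the pairs RF-364, CR-147 and RF-379. It ranged from 5 to 12 when single pairs were left out with the filter scaled to the arrays left, a change made after seeing the data, and from 3 to 9 with the filter of the full set. No member was lower in any alternative by limma. Over all genes, 639 higher became 17 with the background covariate and 414 without those pairs, and 391 to 629 with a pair left out. The 291 lower became 2022 with median scaling, 452 with array weights, 9 with the background covariate, 56 without those pairs and 83 to 252 with a pair left out. Those ranges use the filter scaled to the arrays left. In the planned fits that leave out a pair with the filter of the full set, 2.57% (without RF-212) to 4.39% (without CR-147) of the genes tested were higher, against 5.7%, and 0.572% (without FC-279) to 1.86% (without FC-28) lower, against 2.59%. Without the specimen block (no replicate block), 444 genes were higher and 85 lower, and Ambp (adjusted p = 0.0977), Hpx (0.127) and Ttr (0.153) were not called. With the background covariate the log2 fold change of Ttr turned to -0.27. Among members not called in the reported fit, the lowest log2 fold change over the alternatives was also under 0 for several. It was -11.42 for Arg1, -2.15 for Apoa2, -1.81 for Ass1, -0.35 for Apoa1 and -0.33 for Apoc3. Background and group did not overlap in these pairs and cannot be told apart. In the other settings the cause was not tested, beyond the lower number of genes and specimens. Mat1a, Iyd and Ttc36 were called wherever they were tested except with that covariate, with adjusted p of up to 0.159, 0.135 and 0.29 over the alternatives. Iyd and Ttc36 passed every detection filter through the lung metastases alone, as did Mat1a without the pairs RF-364, CR-147 and RF-379. Those calls are not read as support.

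Between metastatic and localized primaries 0 members were called in every alternative, and the 1 gene lower became 0 with the specimen prefix as a covariate, 0 to 1 with a tumour left out, when 0 to 1 were higher. In the liver metastases, 958 genes higher became 502 without CR-147 and 770 without RF-342, and the counts for the 3 hepatocyte lists stayed within 1.5 times. A paired fit was possible for the lung comparison and, as a random block, for the liver comparison, where leaving it out gave 847 genes. Levels near 5 are at the limit of detection, so differences among them are not resolved.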
